A study of Mus musculus with 2 samples.

Results

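The regions described here are peaks of 5-hydroxymethylcytosine (5hmC) in 10 imprinted domains of the mouse genome, taken by position on build mm9 in both deposited peak lists. A peak belonged to a domain if its midpoint lay inside it. The domains spanned 7.25 Mb, or 0.275% of the autosomes and chromosome X, and held 309 peaks of 121661. The list recorded for the sample given ascorbic acid (AA, vitamin C), called the AA-recorded list, gave 152 of its 57827 peaks, and its counterpart for the sample without it, the no-AA-recorded list, 157 of 63834.

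Embryonic stem (ES) cells from mouse strain 129SvEv, incubated for 24 h with AA at 100 µM, were set against ES cells whose label names no incubation. Each group had 1 library, made by chemical pull-down of sheared genomic DNA that carries 5hmC, so no replicate spread was at hand and no test between groups was made. Tags kept once per position numbered 11907082 in the AA-recorded library, against 18398162 in the no-AA-recorded one. The headers of both lists name the other sample. The record was followed, and every direction below turns round if the headers are right. Other technical values also moved with the label: the no-AA-recorded library was 1.55 times as deep, and the fragment length used by the peak caller was 229 bp in the AA-recorded and 165 bp in the no-AA-recorded library. Their part in the differences below was not tested, and they cannot be told apart from AA.

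Imprinted genes are expressed from a single parental allele. Their choice of allele is set by control regions that receive 5-methylcytosine in the germ line of a single parent and keep it after fertilisation. The Tet dioxygenases oxidise 5-methylcytosine to 5hmC, a step on the way to loss of methylation, and ascorbic acid supports enzymes of this family. Pull-down peaks carry no information on the parental allele. Where a list shows no peak, 5hmC was not called there, which does not show that it was absent.

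In mammals these modifications lie mainly at CpG dinucleotides, so the letters of the promoters show how many possible sites lie before each gene start. Methylation of these sites was not measured here. Shown are the 250 bases before the start of each gene that names a domain and has a single start in the RefSeq promoter table (build GRCm38.p6), read 5′ to 3′ on the gene's strand with each CpG in capitals. Because this build differs from that of the peaks, no peak was placed on these sequences.
Igf2r: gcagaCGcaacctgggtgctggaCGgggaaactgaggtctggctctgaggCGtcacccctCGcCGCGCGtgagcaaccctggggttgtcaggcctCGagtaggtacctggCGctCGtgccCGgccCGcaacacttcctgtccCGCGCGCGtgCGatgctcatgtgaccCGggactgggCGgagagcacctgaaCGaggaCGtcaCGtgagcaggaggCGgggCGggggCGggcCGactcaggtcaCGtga
Dio3: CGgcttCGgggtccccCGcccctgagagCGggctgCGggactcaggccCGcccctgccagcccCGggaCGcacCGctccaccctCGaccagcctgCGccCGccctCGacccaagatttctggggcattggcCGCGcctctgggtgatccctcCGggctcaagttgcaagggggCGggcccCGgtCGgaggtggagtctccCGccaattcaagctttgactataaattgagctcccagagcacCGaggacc
Plagl1: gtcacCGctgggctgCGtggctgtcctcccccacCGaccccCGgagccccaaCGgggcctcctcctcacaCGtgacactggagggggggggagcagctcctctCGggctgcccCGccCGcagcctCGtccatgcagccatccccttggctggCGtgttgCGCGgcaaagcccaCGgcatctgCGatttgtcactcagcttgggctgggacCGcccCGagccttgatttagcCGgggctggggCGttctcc
Peg3: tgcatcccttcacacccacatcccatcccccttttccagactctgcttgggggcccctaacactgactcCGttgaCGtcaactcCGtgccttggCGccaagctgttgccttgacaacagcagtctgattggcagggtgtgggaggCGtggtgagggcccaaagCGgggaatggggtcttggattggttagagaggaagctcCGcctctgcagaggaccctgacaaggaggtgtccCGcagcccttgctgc
Dlk1: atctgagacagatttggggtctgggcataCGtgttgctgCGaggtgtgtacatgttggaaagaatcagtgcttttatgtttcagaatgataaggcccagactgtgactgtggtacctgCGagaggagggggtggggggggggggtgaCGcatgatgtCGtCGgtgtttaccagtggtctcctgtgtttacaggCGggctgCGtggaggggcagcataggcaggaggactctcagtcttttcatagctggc
Kcnq1ot1: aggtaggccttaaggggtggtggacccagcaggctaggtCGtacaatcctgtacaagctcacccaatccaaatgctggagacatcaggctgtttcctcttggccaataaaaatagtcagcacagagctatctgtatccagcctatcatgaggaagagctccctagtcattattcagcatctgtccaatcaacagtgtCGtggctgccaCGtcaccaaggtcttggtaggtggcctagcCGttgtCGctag
Igf2r, Peg3 and Kcnq1ot1 lie on the minus strand and Dio3, Plagl1 and Dlk1 on the plus strand. Igf2r had 27 CpG, a number reached by 8.56% of all 32851 promoters. Dio3 had 21, Plagl1 19, Peg3 and Dlk1 8 each and Kcnq1ot1 5, beside a median of 6 over all promoters. The median over the 43 promoters of the 27 matched genes, of 34 looked for, was 8 CpG.

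The 10 domains together had about the peak density of the genome, and Snrpn was the sparsest of them in both lists. The AA-recorded list had 21.0 peaks per Mb in the domains (95% exact Poisson interval 17.8 to 24.6) and the no-AA-recorded list 21.7 (18.4 to 25.3), against 21.9 and 24.2 per Mb over the autosomes and chromosome X. Relative to its whole list this was 0.957 (0.811 to 1.12) and 0.895 (0.761 to 1.05), intervals that include 1. The Snrpn domain had 7.27 AA-recorded peaks per Mb (4.66 to 10.8) and 8.18 no-AA-recorded peaks per Mb (5.39 to 11.9). The other 9 domains together had 32.4 (27.0 to 38.5) and 32.9 (27.5 to 39.1), which was 1.48 and 1.36 times the density of the whole AA-recorded and no-AA-recorded lists. Singly, 9 domains lay above the whole list in the AA-recorded and 6 in the no-AA-recorded list, and the interval lay above it in 2 and 1. Stretches of the same length on either side of each domain, those of Snrpn included, had 22.9 AA-recorded and 26.8 no-AA-recorded peaks per Mb. The stretches beside Snrpn had 18.6 and 21.8 and made up 6.6 of the 14.5 Mb. Those beside the other 9 domains were therefore denser than the joint values, which are not a like comparison for the 32.4 and 32.9. They were thus also denser than the whole lists, so the 1.48 and 1.36 do not set these domains apart from their surroundings. Taken singly, the stretches were denser than their domain beside Peg3, Igf2r and Mest in both lists. The same held beside Peg10 in the no-AA-recorded list, and the remaining stretches beside these 9 domains were sparser than their domain. No test of these differences was made, and the intervals cover counting error only.

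**Figure D1:**
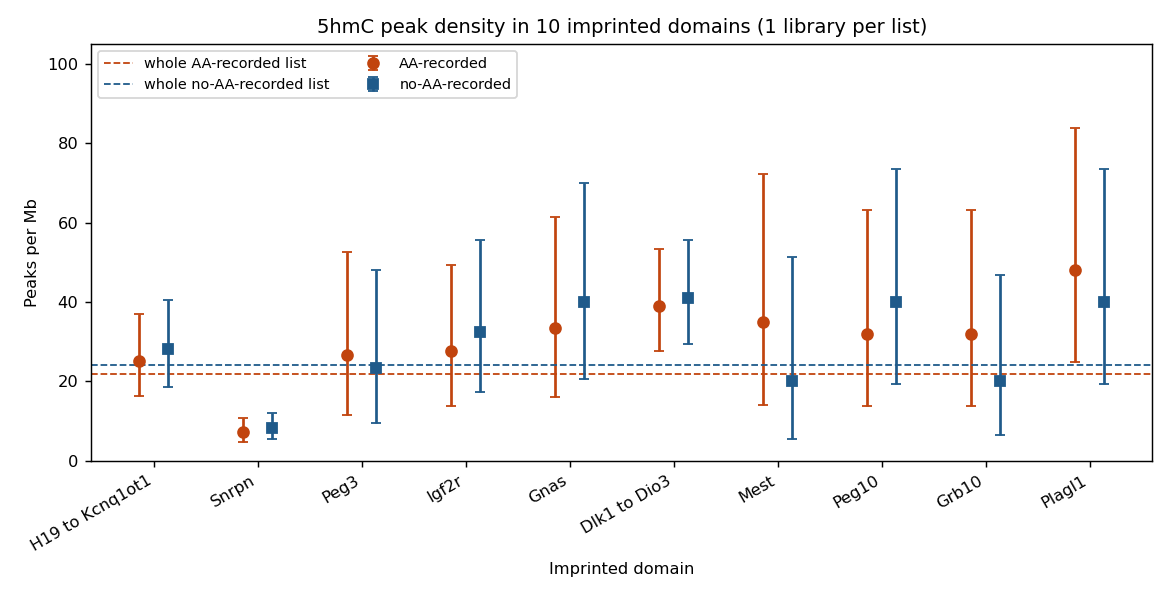
Peaks per Mb in each domain for the AA-recorded (circles, left) and the no-AA-recorded list (squares, right), with 95% exact Poisson intervals, and the density of each whole list as a dashed line. The Snrpn domain lies below both lines at 7.27 and 8.18 peaks per Mb, and the Dlk1 to Dio3 domain above them at 39.0 and 41.0.

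Between the lists, peak numbers in the domains differed by less than counting error. The ratio of AA-recorded to no-AA-recorded peaks was 0.968 (exact conditional interval 0.769 to 1.22), beside 0.906 for all peaks. The AA-recorded list had more peaks in 4 domains and fewer in 6, and the interval of the ratio included 1 in all 10. The largest ratios were 1.75 in the Mest domain (7 against 4 peaks, 0.445 to 8.15) and 1.60 in the Grb10 domain (8 against 5, 0.462 to 6.22). The covered length was larger in the AA-recorded list in 9 domains, the exception being Igf2r. It came to 176.1 kb in the AA-recorded and 141.8 kb in the no-AA-recorded list, a ratio of 1.24 beside 1.21 for the whole lists. The median domain peak was 1050 bp long in the AA-recorded list and 835 bp in the other.

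Of the AA-recorded domain peaks, 80 of 152 overlapped one of the other list. This was 52.6% (44.4% to 60.8%, Clopper-Pearson), beside 47.5% of the whole AA-recorded list. Of the no-AA-recorded domain peaks, 80 of 157 overlapped an AA-recorded peak, or 51.0% (42.9% to 59.0%), beside 43.6% of its list. In both lists the interval includes the share of the whole list. These 80 overlaps were all one to one. Sharing went with strength: of 27 AA-recorded domain peaks with a p of at most 1e-10, 22 were shared, and of the 125 weaker ones 58 were. In the no-AA-recorded list it was 27 of 34 and 53 of 123. The same held over the whole lists, where 76.1% of the strong AA-recorded and 79.3% of the strong no-AA-recorded peaks were shared, and 39.0% and 35.5% of the weaker ones. The share of peaks this strong was 17.8% of the AA-recorded domain peaks, beside 22.9% of its list, and 21.7% of the no-AA-recorded ones, beside 18.4%. The authors' fold enrichment was 10 or more in 20 AA-recorded domain peaks, or 13.2% beside 21.7% of its list, and in 12 no-AA-recorded ones, or 7.64% beside 10.4%.

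**Figure D2:**
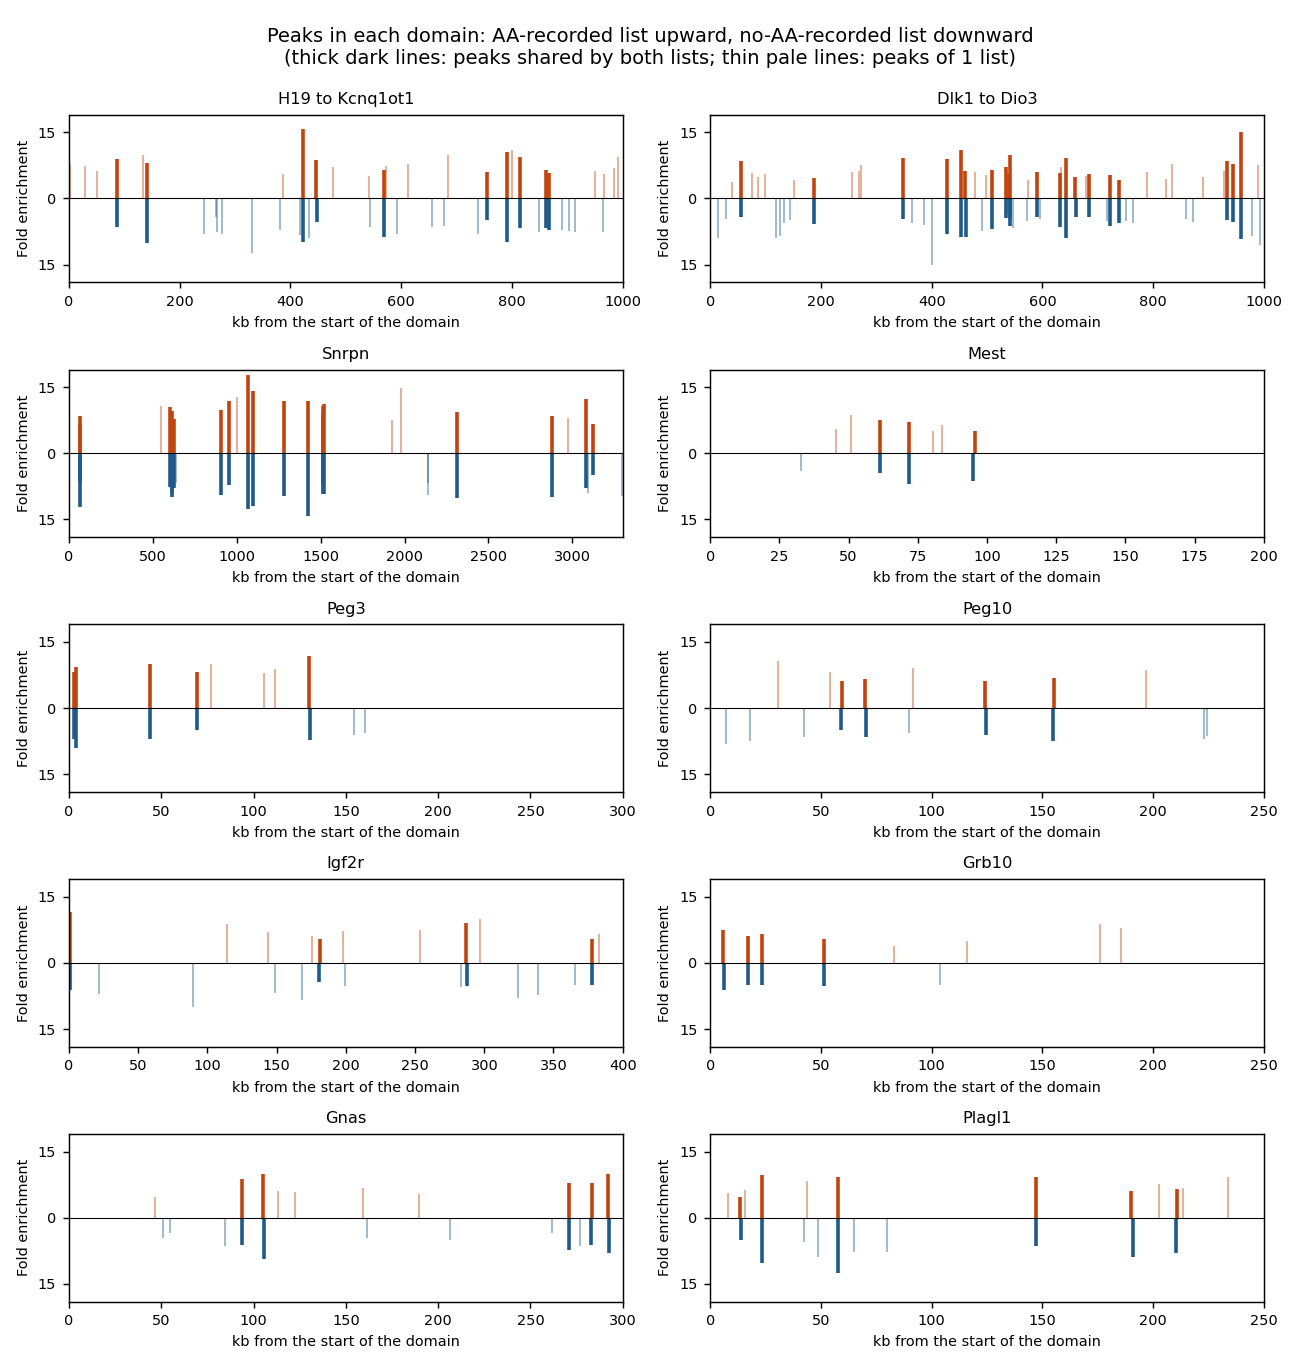
Each vertical line is a peak, placed by its midpoint in kb from the start of its domain, with the authors' fold enrichment as its height, upward for the AA-recorded and downward for the no-AA-recorded list. Thick lines are the 80 peaks of each list that overlap between lists. In the Snrpn domain most lines are thick, and the last 103.7 kb of the Mest domain and 139.2 kb of the Peg3 domain hold no peak.

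The Snrpn domain (chromosome 7, 66400000 to 69700000) is the mouse counterpart of the Prader-Willi and Angelman region. It takes its name from Snrpn, a spliceosomal protein gene, and the region is known to hold the ubiquitin ligase gene Ube3a and the paternally expressed genes Ndn, Magel2 and Mkrn3. It held 24 AA-recorded and 27 no-AA-recorded peaks in 3.3 Mb, and no peak in either list between 68715961 and 69280060, a stretch of 564.1 kb. Most of its peaks were in common between the lists. Shared were 19 of 24 AA-recorded ones (79.2%, 57.8% to 92.9%) and 19 of 27 no-AA-recorded ones (70.4%, 49.8% to 86.2%). Over the whole lists it was 47.5% and 43.6%, and in the stretches on either side 50.4% and 43.75%. Of the domain peaks whose p was 1e-10 or lower, it held 11 of 27 in the AA-recorded and 12 of 34 in the no-AA-recorded list. This was 45.8% and 44.4% of its peaks, beside 22.9% and 18.4% of the whole lists and 30.9% and 21.5% of the peaks in the stretches on either side of it. The median fold enrichment was 10.08 in the AA-recorded and 9.0 in the no-AA-recorded list, beside 7.86 and 7.05 for the whole lists and 8.73 and 7.07 for those stretches. The tag density of its peaks, in tags per kb and per 1000000 kept tags, had a median of 2.22 in the AA-recorded list, beside 2.22 in the whole list, and 2.23 in the no-AA-recorded list, beside 1.90. Tag density over fold, a rough stand-in for local background, had a median 0.787 and 0.882 times that of the whole AA-recorded and no-AA-recorded lists there. By its making it falls as fold rises, so it is no separate measure. The part of local background in the higher folds was not tested.

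The strongest Snrpn peak by p lay at one place in the 2 lists. It ran from 67307338 to 67308957 with 68 tags (Poisson interval 52.8 to 86.2) at 9.76-fold in the AA-recorded list, and from 67307332 to 67308828 with 69 tags (53.7 to 87.3) at 9.47-fold in the no-AA-recorded list. By p it ranked 779 among all AA-recorded and 385 among all no-AA-recorded peaks. A peak near 67.47 Mb (67467163 to 67468062) had the highest fold among the AA-recorded domain peaks, 17.82 with 25 tags, against 12.56 with 35 tags in the no-AA-recorded list. The pair at 67495436 had 14.06-fold and 37 tags in the AA-recorded list and 11.97-fold and 39 tags in the other. That at 67826732 had 11.84-fold and 42 tags in the AA-recorded list, against 14.11-fold and 49 tags.

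A cluster of 4 pairs near 67.0 Mb, chosen after its values were seen, held the lowest density ratio of all. At 67010677 to 67011734 the AA-recorded peak had 35 tags and 2.78 tags per kb and per 1000000 kept tags, and its no-AA-recorded counterpart (67010716 to 67011937) 99 tags and 4.40. The log2 ratio was -0.66 (-1.26 to -0.10), the lowest of the 80 domain pairs and the only one whose interval lay below 0. The next pair, at 67013141, had 37 AA-recorded and 92 no-AA-recorded tags and a log2 ratio of -0.32 (-0.91 to 0.25). The other pairs there were at 67003258, with a log2 ratio of -0.10 (-0.97 to 0.71), and at 67026147, with 0.03 (-0.70 to 0.72). A no-AA-recorded peak with 83 tags at 67036222 to 67037683 had no AA-recorded counterpart. Of the 5 AA-recorded Snrpn peaks without a counterpart, that at 68379351 to 68380246 had the highest fold, 14.85 with 22 tags, and that at 68327073 to 68328976 the smallest p, with 49 tags at 7.62-fold.

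**Figure D3:**
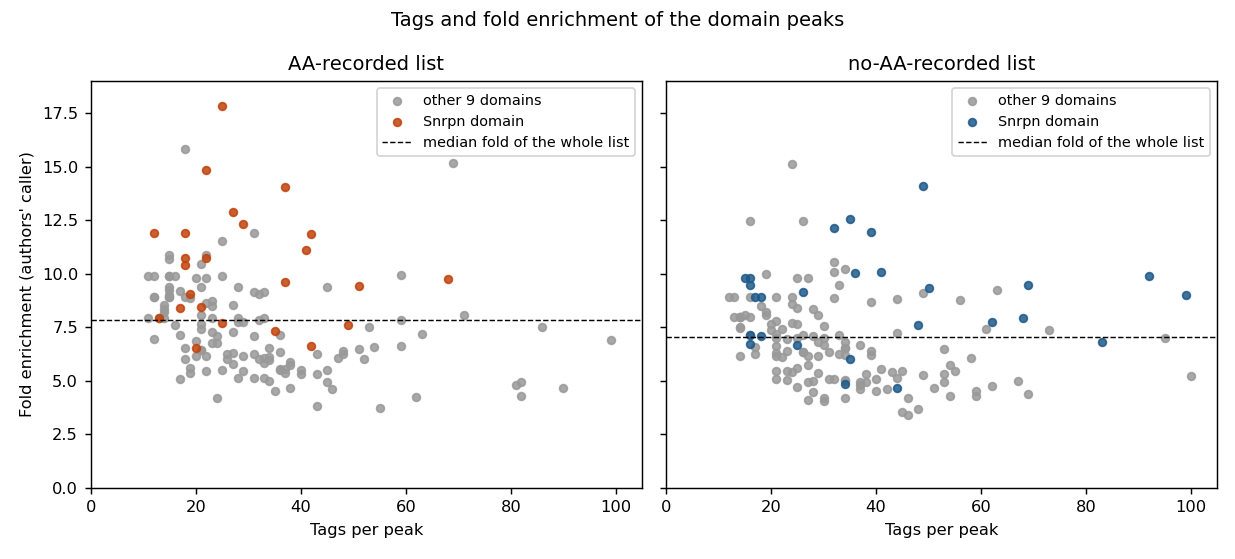
Tags per peak and the authors' fold enrichment of every domain peak, AA-recorded list on the left and no-AA-recorded list on the right, with the Snrpn domain in colour and the median fold of each whole list dashed. Snrpn peaks have a median fold of 10.08 and 9.0, and peaks with more than 80 tags in the other domains lie below 8-fold. Among Snrpn peaks, the no-AA-recorded ones with 99, 92 and 83 tags lie at 9.0-, 9.9- and 6.79-fold. The AA-recorded ones have at most 68 tags.

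The Dlk1 to Dio3 domain (chromosome 12, 110600000 to 111600000) was the peak-richest domain of the no-AA-recorded list. It had 41.0 peaks per Mb there, close to the 40.0 of each of the Gnas, Peg10 and Plagl1 domains. Dlk1 is a Notch-like transmembrane protein and Dio3 the deiodinase that inactivates thyroid hormone. In the RefSeq table the stretch between them holds 58 microRNA hairpins, which lie among the maternally expressed noncoding RNAs Meg3, Rian and Mirg. Its 1 Mb held 39 peaks of the AA-recorded and 41 of the no-AA-recorded list. Of each, 20 were shared, or 51.3% and 48.8%, beside 47.5% and 43.6% of the whole lists. Their median fold was low, 6.08 in the AA-recorded and 5.46 in the no-AA-recorded list, beside 7.86 and 7.05 for the whole lists. Tag density over fold, which rises as fold falls, had a median 1.37 and 1.35 times that of the whole lists. The stretches on either side were alike, with a median fold of 5.675 and 5.57. Their tag density over fold was 1.53 and 1.41 times that of the whole lists. The longest domain peaks lay here, up to 3113 bp in the AA-recorded list (110749076 to 110752188, 82 tags, no counterpart) and 2349 bp in the no-AA-recorded list (111171048 to 111173396, 100 tags, no overlap but an AA-recorded peak within 500 bp). Peaks in the stretches on either side reached 4498 bp in the AA-recorded and 2838 bp in the no-AA-recorded list.

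By p the strongest peak of this domain coincided between the lists, near the upper end of the window (111557196 to 111558834 in the AA-recorded list). It had 69 tags at 15.19-fold in the AA-recorded list and 63 tags at 9.22-fold in the no-AA-recorded list. Its density was 3.54 tags per kb and per 1000000 kept tags in the AA-recorded and 2.15 in the no-AA-recorded library, a log2 ratio of 0.72 (0.20 to 1.23). A peak of 15.12-fold with 24 tags at 111000682 to 111001275 was the highest fold of any no-AA-recorded domain peak and had no AA-recorded counterpart. Another such peak, at 111592240 to 111592978, had 32 tags at 10.54-fold. The lowest ratio of the domain was at 111060475 to 111061579, with 26 AA-recorded and 44 no-AA-recorded tags and a log2 ratio of -0.55 (-1.31 to 0.18).

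The H19 to Kcnq1ot1 domain (chromosome 7, 149700000 to 150700000) joins the cluster of H19 and the growth factor gene Igf2 with that of Kcnq1ot1, an antisense noncoding RNA that silences its neighbours, among them the cell cycle inhibitor gene Cdkn1c. It held 25 AA-recorded and 28 no-AA-recorded peaks, of which 10 in each list were shared, or 40.0% (21.1% to 61.3%) and 35.7% (18.6% to 55.9%). Over the whole lists it was 47.5% and 43.6%, inside these intervals, and in the stretches on either side 41.7% and 30.6%. The largest difference in layout was a stretch of 244.7 kb without an AA-recorded peak (149840839 to 150085523), where the no-AA-recorded list had peaks from 149943264 on, among them 16 tags at 12.45-fold at 150030360 to 150030769 and 44 tags at 7.23-fold at 150080767 to 150081876. The highest fold of the AA-recorded peaks here was 15.84, with 18 tags at 150121629 to 150122263, against 9.78 with 25 tags at the same place in the no-AA-recorded list. The strongest peaks by p differed: 150491438 to 150492207 with 21 tags in the AA-recorded list, and 150267832 to 150269008 with 56 tags in the no-AA-recorded list. At 150267796 the AA-recorded list had 21 tags, and the log2 density ratio was -0.60 (-1.403 to 0.14).

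The Peg3 domain (chromosome 7, 6500000 to 6800000), named for a zinc-finger protein gene, had 8 AA-recorded and 7 no-AA-recorded peaks, 5 of them shared in each list. This was 62.5% and 71.4%, beside 47.5% and 43.6% of the whole lists and 63.2% and 52.2% in the stretches on either side. Tag density was higher in the AA-recorded library in all 5 pairs, with a median log2 ratio of 0.40, beside 75.2% of all pairs and a median of 0.22. Without scaling to library size 1 of the 5 was higher. The highest ratio of the 80 domain pairs was here, at 6543058 to 6544538, with 59 AA-recorded tags (3.35 tags per kb and per 1000000 kept tags) and 28 no-AA-recorded tags (1.73). Its log2 ratio was 0.95 (0.28 to 1.65). The strongest no-AA-recorded peak lay at 6503303 to 6504560 with 49 tags at 9.09-fold, where the AA-recorded list had 45 tags at 9.36-fold. The no-AA-recorded peaks at 6654155 and 6660027 were the last ones in the domain, followed by 139.2 kb without a peak in either list.

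The Grb10 domain (chromosome 11, 11750000 to 12000000), named for an adaptor protein that dampens insulin receptor signalling, had 8 AA-recorded and 5 no-AA-recorded peaks. Its 4 pairs had a median log2 ratio of 0.64, and 3 of the 4 were higher in the AA-recorded library, a share close to the 75.2% of all pairs. Without scaling 2 of the 4 were higher. The pair at 11754723 to 11757247 had 86 AA-recorded and 33 no-AA-recorded tags, a log2 density ratio of 0.77 (0.18 to 1.396), and its AA-recorded peak was 2525 bp long against 1070 bp. That at 11772423 to 11773993 had 59 and 34 tags and a ratio of 0.79 (0.16 to 1.45). The no-AA-recorded list had no peak in the last 145.9 kb of the domain, where the AA-recorded list had 3: 34 tags at 11865151, 15 tags at 11925514 and 23 tags at 11934829.

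The 2 domains of chromosome 6 each held 1 pair whose interval lay above 0, though neither lay above the median of all pairs, 0.22. In the Mest domain (30600000 to 30800000), named for a hydrolase-like protein gene, 7 AA-recorded and 4 no-AA-recorded peaks formed 3 pairs. The pair at 30660468 to 30662030 had 53 AA-recorded and 40 no-AA-recorded tags and a log2 ratio of 0.74 (0.12 to 1.37), while that at 30694804 had 31 and 26 tags and -0.30 (-1.10 to 0.51). In the Peg10 domain (4550000 to 4800000), named for a gene derived from a retrotransposon, 8 AA-recorded and 10 no-AA-recorded peaks formed 4 pairs. The pair at 4608664 to 4609942 had 48 AA-recorded and 27 no-AA-recorded tags and a ratio of 0.92 (0.21 to 1.66). The AA-recorded domain peak with the most tags was at 4703657 to 4706388, with 99 tags at 6.91-fold, against 61 tags at 7.40-fold in the no-AA-recorded list, and its ratio was 0.22 (-0.25 to 0.71). Of the unshared peaks with a p of at most 1e-10, the Peg10 domain held 71 tags at 4602930 to 4605198 in the AA-recorded list and 53 tags at 4591580 to 4592817 in the no-AA-recorded list.

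The Igf2r, Gnas and Plagl1 domains, like H19 to Kcnq1ot1, held no pair whose interval excluded 0. Igf2r (chromosome 17, 12700000 to 13100000) encodes the receptor that removes insulin-like growth factor 2, and its domain had 11 AA-recorded and 13 no-AA-recorded peaks, 4 of them shared in each list (36.4%, 10.9% to 69.2%, and 30.8%, 9.09% to 61.4%). These intervals include the 47.5% and 43.6% of the whole lists, and the stretches on either side had 24.0% and 22.2%. Its median log2 ratio was -0.03, with values of 0.64, 0.18, -0.25 and -0.26. Gnas (chromosome 2, 173900000 to 174200000) encodes the stimulatory G protein alpha subunit, and its domain had 10 AA-recorded and 12 no-AA-recorded peaks with 5 pairs between -0.02 and 0.31. Its strongest peak coincided between the lists, with 59 tags at 7.85-fold (174170235 to 174172092) in the AA-recorded list and 73 tags at 7.38-fold in the no-AA-recorded list. Plagl1 (chromosome 10, 12700000 to 12950000), a zinc-finger transcription factor gene, had the highest AA-recorded peak density of the 10 domains, 48.0 per Mb (24.8 to 83.8), against 40.0 (19.2 to 73.6) in the no-AA-recorded list. Its 6 pairs ranged from -0.31 to 0.65.

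Over all 80 pairs the scaled tag density was on the AA-recorded side in 56, or 70.0% (58.7% to 79.7%), beside 75.2% of the 26954 pairs of the whole lists. Without scaling only 9 of the 80 were higher in the AA-recorded library, and with scaling to tags inside peaks 11. Tags inside peaks made up 16.9% of the kept tags in the AA-recorded and 11.7% in the no-AA-recorded library. The scaled densities of the 80 pairs had medians of 2.28 in the AA-recorded and 2.03 in the no-AA-recorded library. The log2 ratio had a median of 0.17 (0.07 to 0.22 by order statistics), beside 0.22 over all pairs. A density over 1.5-fold higher was found in 11 pairs, or 13.8% (7.07% to 23.3%), beside 14.6% over all pairs. One over 1.5-fold lower was found in 2 pairs, or 2.50% (0.304% to 8.74%), beside 0.612%. The interval of the ratio lay above 0 in 6 pairs and below 0 in 1. Set against the median of all pairs, 0.22, it lay above in 1 pair, that of the Peg3 domain at 6543058, and below in 4. Leaving out the scaling moves every log2 ratio by -0.63. The 6 pairs with an interval above 0 then stayed higher in the AA-recorded library, though none with an interval above 0. They were picked for high ratios, so this is no separate support. These intervals are not adjusted for the number of pairs.

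**Figure D4:**
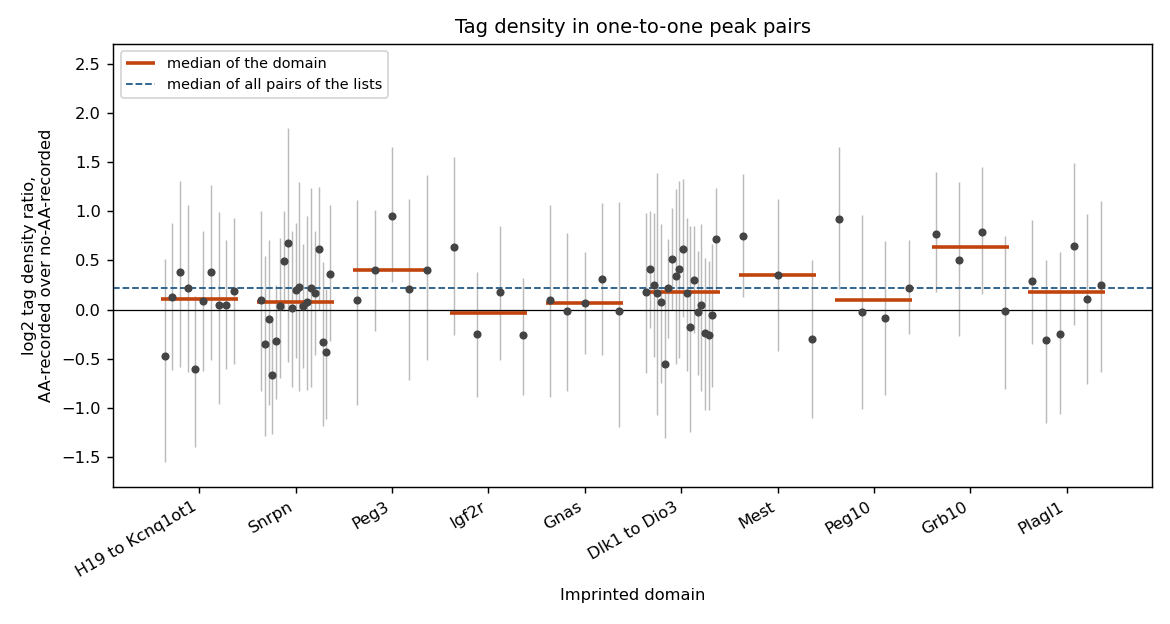
The log2 ratio of tag density, AA-recorded over no-AA-recorded, in the 80 one-to-one pairs by domain, in order of position within a domain, with 95% exact conditional intervals and the median of each domain as a solid line. Domain medians run from -0.03 for Igf2r to 0.64 for Grb10, around the median of 0.22 of all pairs (dashed).

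The strongest peak by p lay at the same place in both lists in 5 domains (Snrpn, Gnas, Dlk1 to Dio3, Peg10 and Grb10) and at different places in the other 5. In the 80 pairs the summits lay a median of 122.5 bp apart, beside 113 bp over all pairs. Unshared domain peaks were weaker than shared ones, with a median of 24 against 28 tags in the AA-recorded list and 25 against 34 in the no-AA-recorded list. Of the unshared peaks, 3 of 72 AA-recorded and 4 of 77 no-AA-recorded ones lay within 500 bp of a peak of the other list, or 4.17% and 5.19%, beside 3.46% and 3.65% of the unshared peaks of the whole lists.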

How the data were processed

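5hmC was measured in 2 libraries of mouse ES cells, 1 per group. Per the submitters' processing notes, the authors used BWA 0.5.9-r16 and MACS 1.4.2 with build mm9. Peaks were called per library without a control at a p cutoff of 1e-05, with a regional background over 10000 bp and 1 tag kept per position, per the file headers. The deposited tag counts per peak are not scaled. The deposited score (10 times the −log10 of the Poisson p) and the fold enrichment, a ratio to local background, are the authors' own values and rank peaks within a list. Positions count from 1.

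Peaks of the 10 domains were taken by midpoint and matched by at least 1 bp. Tag density is tags per kb and per 1000000 kept tags. Intervals are 95% and exact (Poisson, Clopper-Pearson, conditional on the sum for ratios), or order statistics for a median. They cover counting error, or the spread over pairs, only. Keeping 1 tag per position took out 24.5% of the AA-recorded and 32.1% of the no-AA-recorded tags. Without molecular identifiers, PCR copies and separate molecules that start at the same position cannot be told apart in this step. The named peaks are those of smallest p per domain, the pairs of highest mean fold and of highest and lowest density ratio, the unshared peaks of highest fold, the longest peaks and the longest stretches without a peak. Peaks with the most tags and unshared peaks of smallest p were added after their values were seen, as were other single peaks that fill in a domain. The domains, lists and comparisons were chosen with earlier results of these data known. The overlap and ratio code was tested on simulated data. Calculations used Python 3.11.15, pandas 2.3.3, NumPy 2.4.6 and SciPy 1.17.1. Alternatives were stricter cutoffs, other overlap rules, scalings and measures, domains without Snrpn, and the lists exchanged. Positions of genes on mm9 were not used here.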

Additional observations from a re-analysis of the deposited data

How the results depend on the processing

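The log2 ratio of peak numbers in the domains, -0.05, became 0.74 with a fold enrichment of at least 10, where 20 AA-recorded and 12 no-AA-recorded peaks were left. That of the covered length, 0.31, became 0.99 at that cutoff and -0.31 with the lists exchanged. The median log2 density ratio of 0.17 turned to -0.46 without scaling, to -0.36 with scaling to tags inside the peaks and to -0.17 with the lists exchanged. Each scaling moves every pair alike. It became 0.34 for tags per peak, 0.23 for fold enrichment and 0.32 with scaling to tags before duplicate removal. The density of the domains relative to the whole list, 0.957 in the AA-recorded and 0.895 in the no-AA-recorded list, became 0.742 and 1.05 with a p of at most 1e-10, 0.581 and 0.657 with a fold of at least 10, and 1.48 and 1.36 without the Snrpn domain. For values that moved under a stricter cutoff, another measure or the scaling before duplicate removal, the cause was not tested. The other 18 alternatives, among them each one tried for the shared percentages, stayed within the interval of the main value. Covered length has no interval of its own, and that of the peak numbers served as a rough guide only. As a ratio that interval was 0.769 to 1.22, and the main covered-length ratio of 1.24 lies outside it. A domain of 4 to 13 peaks sets wide limits on any ratio. No paired analysis was possible because the design has a single library on each side, so leaving a library out was not an option either.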
